A study of Mus musculus with 4 samples.

Results

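The genes described here encode 10 regulators of messenger RNA decay in inflammation, and they were followed across macrophages from wild-type (WT) mice and from mice labelled Sema6D-/-, without and with lipopolysaccharide (LPS, which macrophages sense as a sign of bacteria). The members were Zfp36, Zfp36l1, Zfp36l2, Zc3h12a, Zc3h12c, Rc3h1, Rc3h2, Elavl1, Btg1 and Btg2, chosen by name from the 24235 genes that the transcript tables gave, and all 10 were found. The mice were C57BL/6 and 7 weeks old, and M-CSF, a growth factor for macrophages, was used to derive the cells from marrow. The groups were WT without LPS, WT with LPS at 100 ng/ml for 4 h, Sema6D-/- without LPS, and Sema6D-/- with the same LPS treatment, with 1 library in each. The titles alone separate cells without LPS from cells with it, because every sample carries the same treatment text. Neither the deleted part of Sema6d nor pooling of animals was given in the sources used here.

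An inflammatory mRNA lasts only as long as proteins that bind its 3′ untranslated region (3′ UTR) allow. Proteins of the Zfp36 family (Zfp36 encodes tristetraprolin) bind AU-rich elements and recruit the CCR4-NOT complex, which removes the poly(A) tail. The endonuclease Regnase-1, encoded by Zc3h12a, and the Roquin proteins, encoded by Rc3h1 and Rc3h2, act on stem-loops. HuR, encoded by Elavl1, binds AU-rich elements and is best known for stabilising its targets, whereas Btg1 and Btg2 encode adaptors of the deadenylases. In macrophages tristetraprolin, Regnase-1 and the Roquin proteins are known as brakes on cytokine output, and several of the members are themselves encoded by short-lived, inducible mRNAs. The files held mRNA levels, and rates of synthesis or decay were not measured.

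With 1 library per group no difference has a replicate check, and the values describe these 4 libraries only. Levels are in FPKM, a fragment count divided by transcript length and by a scale set for each library. Estimated depth was 17400000 to 23600000 fragments in transcripts. The Sema6d gene was low everywhere (0.304 and 0.219 FPKM in WT, 0.563 and 0.592 in the Sema6D-/- labelled libraries). It rested on 20 to 78 estimated fragments and was not lower under the Sema6D-/- label. With the deleted part not given, these levels cannot check the label, and the genotype is called by its label throughout. Xist was found in the WT libraries (22.3 and 21.4 FPKM) and the Y-linked Eif2s3y in the Sema6D-/- labelled libraries (33.5 and 50.4 FPKM), so sex and genotype cannot be told apart. All 10 macrophage markers were measured, with summed levels of 17778 to 25016 FPKM, most of it Lyz2. Between genotypes with LPS, 2 of the 10 were at least 2-fold higher in the Sema6D-/- labelled library (Mertk, log2 ratio 1.97, and Cd14, 1.05) and 1 lower (Itgam, -1.02). Neutrophil markers summed to 882 and 1329 FPKM in WT against 266 and 400 in the Sema6D-/- labelled libraries, with the defining marker Ly6g at 0.45 FPKM or less in every library. Of 9 lymphocyte markers Cd4 alone reached 1 FPKM.

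Because AU-rich elements are what the Zfp36 family reads, the 3′ UTRs of the members were searched for the nonamer TTATTTATT and the pentamer ATTTA, on the transcript strand and with overlapping matches counted. The sequences came from GENCODE vM21 transcripts on build GRCm38, while the authors' tables were made on mm9. The nonamer was present in 6 of the 10 members, against 7.10% of 10218 expressed genes and 10.4% of the 5708 genes whose 3′ UTR lay in the members' length range of 774 to 7181 bases. The 3 Zfp36 family genes among the members held it 1 time each, as did both Roquin genes. Elavl1 held 8 overlapping or neighbouring copies. The sites below, each in the last exon, are shown because they place the letters of an AU-rich element within the members' own mRNAs. Capitals mark the nonamer, and for Elavl1 the first of its 8 copies is shown.
Zfp36 (chr7:28376951-28376979, minus strand): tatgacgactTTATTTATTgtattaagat
Zfp36l1 (chr12:80108167-80108195, minus strand): aactgttggaTTATTTATTttagaaattc
Zfp36l2 (chr17:84184914-84184942, minus strand): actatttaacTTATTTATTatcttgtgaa
Rc3h1 (chr1:160970043-160970071, plus strand): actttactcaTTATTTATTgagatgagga
Rc3h2 (chr2:37373287-37373315, minus strand): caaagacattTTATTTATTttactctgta
Elavl1 (chr8:4285788-4285816, minus strand): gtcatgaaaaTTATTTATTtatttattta

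Pentamers were more evenly spread. The 10 members held 3 to 20 pentamers each, with a median of 3.51 per kilobase of 3′ UTR, against 1.57 per kilobase in genes of the same length range. Rc3h2 had the highest density (7.16 per kilobase) and Btg2 the lowest (2.27). Among 22 textbook targets of these proteins that were measured, 7 held the nonamer, and Tnf alone held 5 copies in 764 bases. A match is a description of these letters and no evidence of binding.

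The promoters of the induced genes Zfp36 and Zc3h12c and of Zfp36l1, which was lower with LPS, are printed to show what lay next to genes that moved apart. They are RefSeq sequences on GRCm38.p6, from 250 bases before to 50 after the start site, for 9 of the 10 members. They were searched on both strands for an NF-kB motif (GGGANNNNCC), an AP-1 motif (TGANTCA) and the CArG box read by serum response factor. Capitals mark every match.
Zfp36 (chr7:28379179-28379478, minus strand): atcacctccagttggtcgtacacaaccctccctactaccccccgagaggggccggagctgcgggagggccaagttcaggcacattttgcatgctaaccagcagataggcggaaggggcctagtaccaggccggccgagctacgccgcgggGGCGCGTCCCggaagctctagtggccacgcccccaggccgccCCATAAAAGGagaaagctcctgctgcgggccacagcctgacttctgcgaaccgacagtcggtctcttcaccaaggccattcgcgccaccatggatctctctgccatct
Zc3h12c (chr9:52168357-52168656, minus strand): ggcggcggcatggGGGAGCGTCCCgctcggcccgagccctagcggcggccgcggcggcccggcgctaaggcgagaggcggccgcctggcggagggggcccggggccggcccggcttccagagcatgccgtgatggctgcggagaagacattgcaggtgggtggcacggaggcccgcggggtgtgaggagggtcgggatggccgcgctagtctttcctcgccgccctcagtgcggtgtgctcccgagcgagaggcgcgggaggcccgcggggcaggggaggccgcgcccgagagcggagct
Zfp36l1 (chr12:80112964-80113263, minus strand): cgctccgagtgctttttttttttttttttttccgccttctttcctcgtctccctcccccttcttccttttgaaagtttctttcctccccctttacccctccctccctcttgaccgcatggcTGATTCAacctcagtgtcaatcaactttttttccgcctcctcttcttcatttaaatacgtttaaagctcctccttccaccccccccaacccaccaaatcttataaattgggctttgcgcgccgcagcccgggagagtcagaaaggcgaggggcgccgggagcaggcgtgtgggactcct

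Zfp36 held a CArG box beginning 58 bases before its start site and an NF-kB motif 100 bases before it. Zc3h12c held 2 NF-kB motifs that overlap, one on each strand, and Zfp36l1 an AP-1 motif and neither of the others. The Zc3h12a promoter held none of the 3 motifs in this window. Of 32851 promoters of this length, 20.7% held the NF-kB motif, 7.81% the AP-1 motif and 1.63% the CArG box. Among the 10880 of them that belong to expressed genes the shares were 26.1%, 5.24% and 1.31%. Among the 10 member promoters (Zc3h12c has 2) the numbers were 4, 2 and 1. The NF-kB motif was also held by Btg2 and Rc3h2 and the AP-1 motif by Rc3h1, genes that stayed within 2-fold with LPS.

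FPKM is a level per transcript length, so the members can be set side by side. In WT without LPS the order was Zfp36 (132 FPKM), Zfp36l2 (68.2), Zc3h12a (29.6), Btg1 (22.1), Zfp36l1 (21.5), Btg2 (16.4), Rc3h1 (10.9), Elavl1 (10.8), Zc3h12c (7.42) and Rc3h2 (6.52). The neighbours Btg1 and Zfp36l1, and Rc3h1 and Elavl1, were close enough that their order cannot be read without replicates. In WT with LPS Zfp36l2 and Zfp36l1 stood lower in this order, at 12.6 and 4.50 FPKM, and Zfp36 stood above 98.7% of the 10680 expressed genes.

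**Figure D1:**
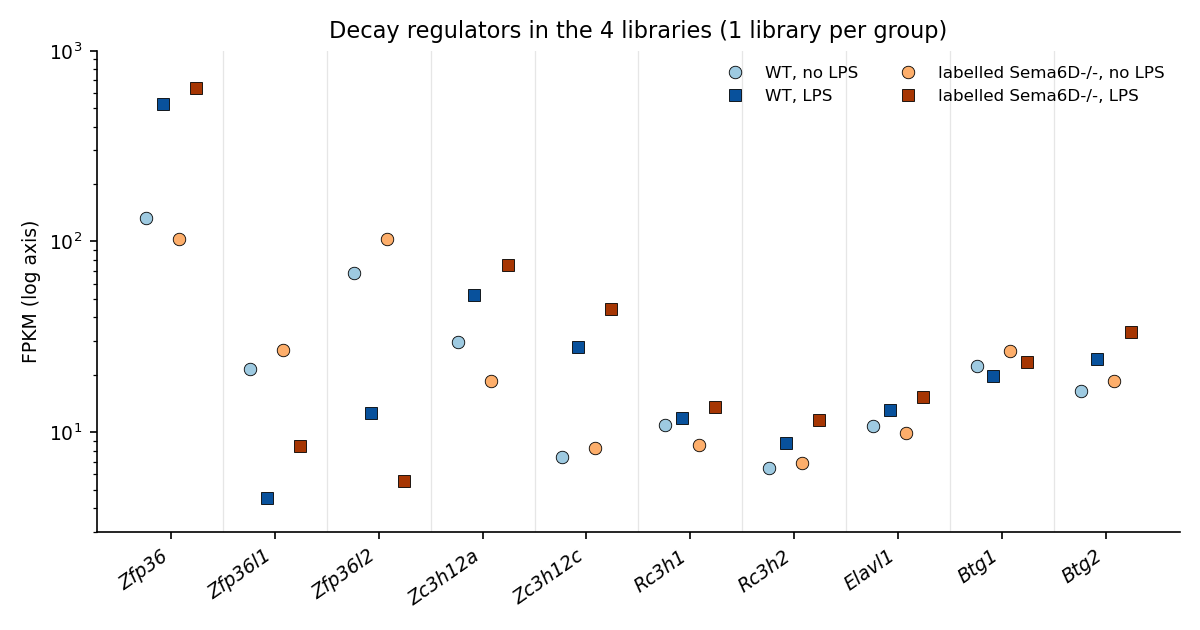
Levels of the 10 members (x axis) in FPKM on a log axis, 1 point per library; pale circles are libraries without LPS and dark squares with LPS, blue for WT and orange to brown for the Sema6D-/- labelled libraries. Zfp36 lies at 527 and 640 FPKM with LPS, while Zfp36l1 and Zfp36l2 lie between 4.50 and 12.6 there.

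LPS was accompanied by higher Zfp36, Zc3h12c and Zc3h12a, the last short of 2-fold in WT, and by lower Zfp36l1 and Zfp36l2. A log2 ratio below is log2((FPKM + 1)/(FPKM + 1)), and the size rule was 2-fold on that scale. In WT 2 of 10 members were at least 2-fold higher, beside 10.7% of all 10375 genes compared, and 2 were at least 2-fold lower, beside 4.85%. In the Sema6D-/- labelled libraries 3 were higher, beside 14.0% of 10398 genes, and 2 lower, beside 8.81%. The median log2 ratio of the members was 0.32 in WT and 0.64 in the Sema6D-/- labelled libraries, where the medians of all genes were -0.00 and 0.01. In bulk samples, fewer cells of a type and less RNA per cell cannot be told apart.

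Zfp36, which encodes tristetraprolin, measured 132 FPKM in WT without LPS and 527 with LPS, and 103 and 640 FPKM in the Sema6D-/- labelled libraries. Within each genotype the stimulated library was 3.98-fold and 6.20-fold higher. Both stimulated libraries lay above both unstimulated ones, as in 33.9% of 10680 genes. The log2 ratios were 1.98 and 2.62. Without the added 1 they were 1.99 with a 95% counting interval of 1.96 to 2.02, and 2.63 with an interval of 2.59 to 2.67. These intervals come from estimated fragment numbers and cover counting error only, not variation between cultures or mice. Among protein-coding genes 387 of 10035 in WT and 264 of 10084 in the Sema6D-/- labelled libraries had a higher ratio.

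Zfp36l1, which encodes a relative of tristetraprolin with the same RNA-binding fingers, measured 21.5 FPKM in WT without LPS and 4.50 with LPS, and 27.0 and 8.47 in the Sema6D-/- labelled libraries. It was lower with LPS in both genotypes, 4.77-fold and 3.19-fold. The log2 ratios were -2.03 and -1.57 (without the added 1 -2.25, counting interval -2.45 to -2.06, and -1.67, interval -1.84 to -1.52).

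Zfp36l2, the third family gene among the members, went the same way and further. It measured 68.2 FPKM in WT without LPS and 12.6 with LPS, 5.40-fold lower, and 102 and 5.56 FPKM in the Sema6D-/- labelled libraries, 18.4-fold lower. Both stimulated libraries lay below both unstimulated ones, as in 34.4% of 10680 genes. The library with the highest level without LPS had the lowest with it. The log2 ratios were -2.34 and -3.98 (without the added 1 -2.43, counting interval -2.54 to -2.33, and -4.20, interval -4.37 to -4.04). In WT 22 of 10035 protein-coding genes had a lower ratio, and in the Sema6D-/- labelled libraries 3 of 10084 did.

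Summed over the 3 family genes among the members, the level was higher with LPS while its make-up narrowed to Zfp36. The sum of the 3 genes was 222 FPKM in WT without LPS and 544 with LPS, and 233 and 654 in the Sema6D-/- labelled libraries. Zfp36 made up 59.7% of that sum in WT without LPS and 96.9% with LPS. In the Sema6D-/- labelled libraries it made up 44.3% and 97.9%. Zfp36l2 held 30.7% and 44.0% of the sum without LPS, and 2.32% and 0.851% with it. The FPKM ratio of Zfp36l2 to Zfp36l1 was 3.18, 2.81 and 3.79 in WT without LPS, WT with LPS and the unstimulated library labelled Sema6D-/-, and 0.656 in the stimulated one, so their order was turned in that library alone of the 4.

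**Figure D2:**
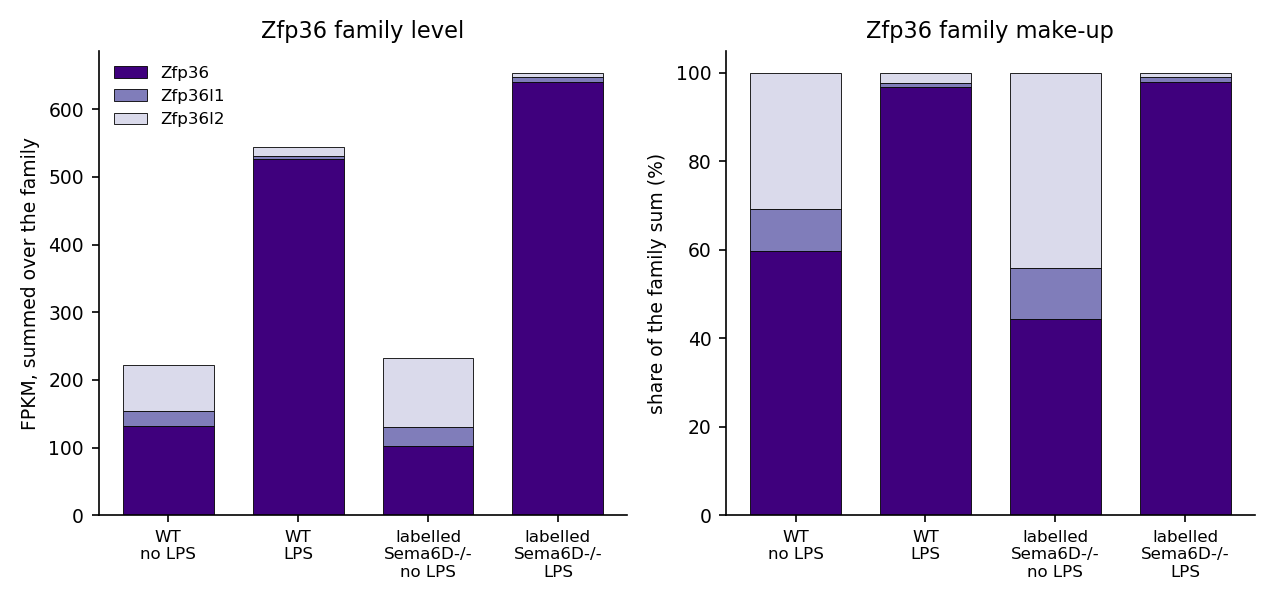
Stacked bars of Zfp36, Zfp36l1 and Zfp36l2 in the 4 libraries, as FPKM (left) and as percent of the family sum (right). Zfp36 takes 96.9% and 97.9% of the sum in the libraries with LPS, against 59.7% and 44.3% without.

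Zc3h12a and Zc3h12c encode the endonucleases Regnase-1 and Regnase-3. Zc3h12a measured 29.6 FPKM in WT without LPS and 52.4 with LPS, and 18.4 and 75.0 FPKM in the Sema6D-/- labelled libraries. Both stimulated libraries were above both unstimulated ones, as in 33.9% of 10680 genes. The 2 libraries labelled Sema6D-/- held the lowest and the highest value. The log2 ratio was 0.80 in WT, short of the size rule, and 1.97 in the Sema6D-/- labelled libraries (without the added 1 0.82, counting interval 0.74 to 0.90, and 2.02, interval 1.92 to 2.13).

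Zc3h12c measured 7.42 FPKM in WT without LPS and 28.0 with LPS, and 8.24 and 44.4 FPKM in the Sema6D-/- labelled libraries. It was 3.77-fold and 5.39-fold higher with LPS, and the unstimulated libraries were close to each other. The log2 ratios were 1.78 and 2.30 (without the added 1 1.92, counting interval 1.82 to 2.01, and 2.43, interval 2.34 to 2.53). The FPKM of Zc3h12a was 3.99 times that of Zc3h12c in WT without LPS and 1.87 times with LPS, and 2.24 and 1.69 times in the Sema6D-/- labelled libraries.

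The Roquin genes and Elavl1 stayed within 2-fold. Rc3h1 measured 10.9 and 11.8 FPKM in WT, then 8.61 and 13.5 in the Sema6D-/- labelled libraries, without and with LPS, and its log2 ratios were 0.10 and 0.59. Rc3h2 measured 6.52 and 8.81 FPKM in WT, then 6.88 and 11.6 in the others, with log2 ratios of 0.38 and 0.68. Of its 2 listed transcripts the minor one gave 0.647 FPKM in WT without LPS and at most 0.0772 in the other 3 libraries. Elavl1 measured 10.8 and 13 FPKM in WT, then 9.88 and 15.4 in the others, with log2 ratios of 0.25 and 0.59. For Rc3h1, Rc3h2 and Elavl1 the direction was not kept on every scale: after rescaling each library to the same summed FPKM, the ratios were -0.39, -0.09 and -0.24 in WT and -0.10, -0.00 and -0.11 in the Sema6D-/- labelled libraries, and that of Rc3h1 in WT was -0.01 after centring on the median.

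Btg1 and Btg2 parted. Btg1, an anti-proliferative gene of resting cells, measured 22.1 and 19.8 FPKM in WT, then 26.6 and 23.4 in the Sema6D-/- labelled libraries, and on the deposited scale it was the one member whose stimulated and unstimulated libraries overlapped. After rescaling to the same summed FPKM its LPS libraries lay below the others, while those of Btg2 and Rc3h2 overlapped with them. Its log2 ratios were -0.16 and -0.18. Btg2, an immediate early gene, measured 16.4 and 24.3 FPKM in WT, then 18.4 and 33.6 in the others, with log2 ratios of 0.54 and 0.83. Btg1 was the higher of the pair without LPS and Btg2 with LPS, with Btg2 at 42.5% and 40.9% of their sum without LPS and at 55.1% and 59.0% with it.

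**Figure D3:**
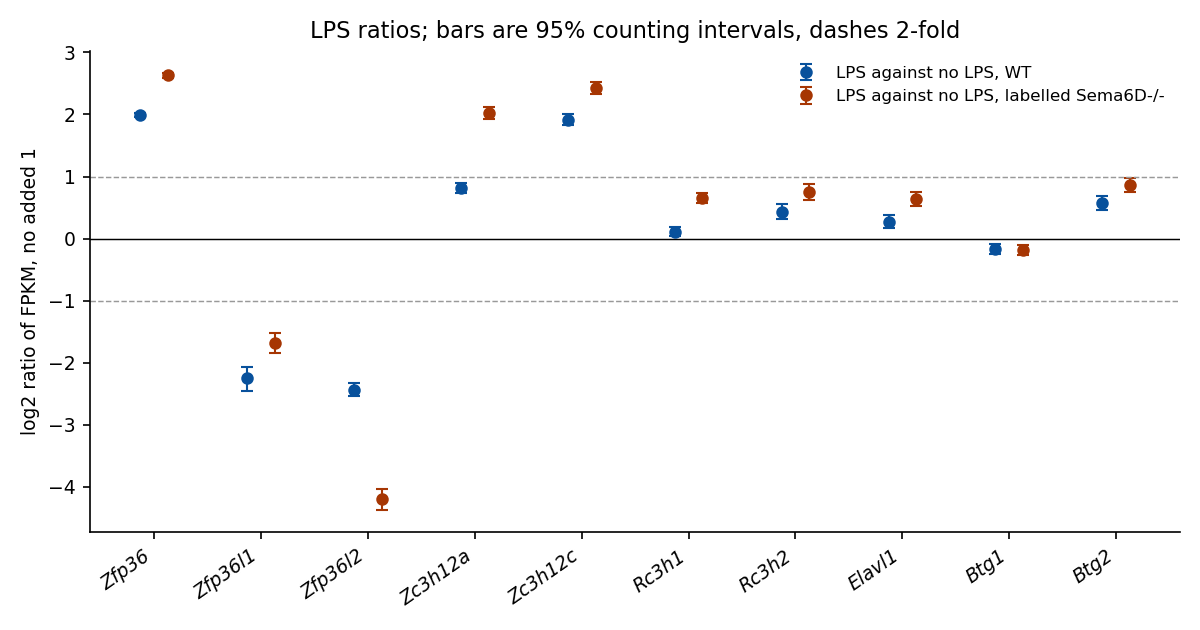
Log2 ratio of FPKM with LPS to FPKM without LPS for each member, without the added 1, in WT (blue) and in the Sema6D-/- labelled libraries (brown); bars are 95% counting intervals and dashed lines mark 2-fold. Zfp36l2 reaches -2.43 and -4.20, and Btg1 stays at -0.17 and -0.19.

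Taking both genotypes side by side, 7 members had both LPS libraries above both libraries without LPS, beside 33.9% of 10680 genes, and 2 had them below, beside 34.4%. After rescaling to the same summed FPKM these counts became 3 (Zfp36, Zc3h12a and Zc3h12c) and 5 of the 10, beside 13.3% and 69.2% of genes. Rescaling moved the median log2 ratio of all genes by -0.48 in WT and -0.69 in the Sema6D-/- labelled libraries. The 5 members past 2-fold in either genotype were past it on that scale too, in the comparisons where they had been.

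Genotype ratios were smaller. Without LPS 0 of 10 members were at least 2-fold higher in the library labelled Sema6D-/- and 0 lower, beside 2.51% and 2.19% of 10322 genes. The widest were those of Zc3h12a, with a log2 ratio of -0.66, and Zfp36l2, with 0.58. With LPS 0 were higher and 1 lower, beside 3.09% and 3.18% of 10078 genes. The one was Zfp36l2, at 5.56 FPKM against 12.6 in WT, a log2 ratio of -1.05 (without the added 1 -1.18, counting interval -1.38 to -0.99). Its ratio lay just inside the size rule, and that of Zfp36l1, 0.78, was the next in size.

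Beside these genotype values, 5 of 9 measured neutrophil markers were at least 2-fold lower in the library labelled Sema6D-/- without LPS and 6 of 9 with LPS. Their part in the ratios was not tested. Of 6 dendritic cell markers Flt3, Zbtb46 and Siglech stayed below 1 FPKM in every library, and the summed level was 1.66 and 4.55 FPKM in WT without and with LPS against 9.46 and 24.3 under the Sema6D-/- label. Most of that gap was Itgax, a gene that some macrophages also express, at 0.178 and 0.349 FPKM against 6.86 and 16.3. With LPS Ccr7 measured 1.06 and 4.19 FPKM and Xcr1 2.52 and 2.50.

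**Figure D4:**
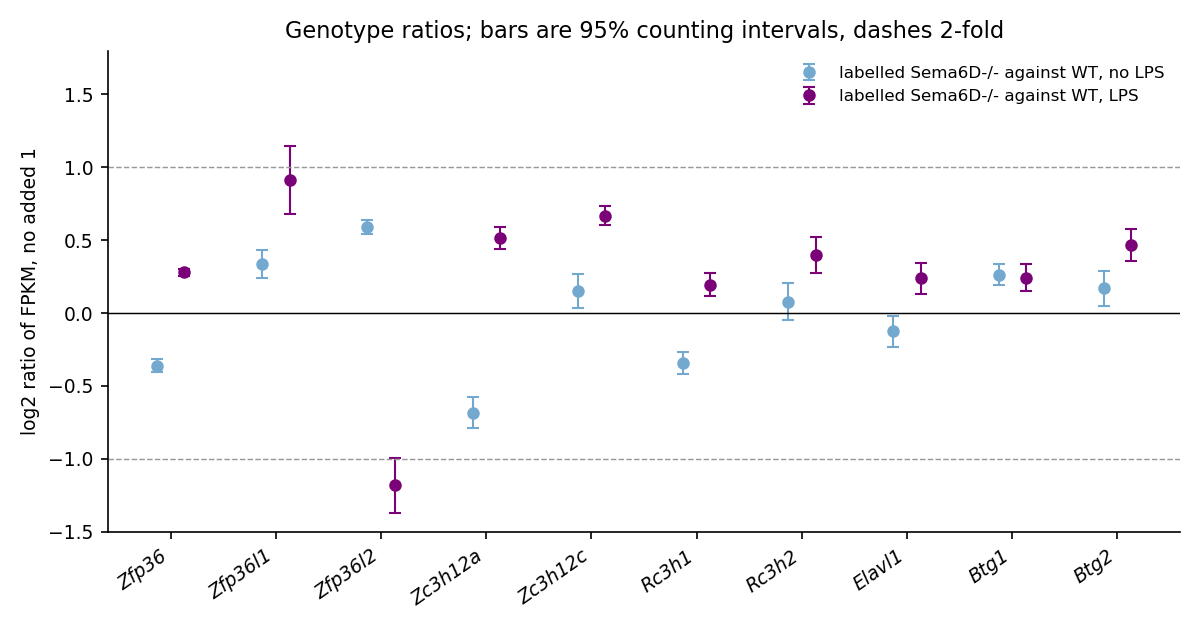
Log2 ratio of FPKM in the library labelled Sema6D-/- to WT for each member, without the added 1, without LPS (light blue) and with LPS (purple); bars are 95% counting intervals and dashed lines mark 2-fold. Zfp36, Zfp36l2, Zc3h12a and Elavl1 lie on opposite sides of 0 in the 2 states, as does Rc3h1 on the deposited scale but not after rescaling (-0.03 with LPS). With LPS that rescaling moved the median log2 ratio of all genes by -0.21, close in size to the ratios of Zfp36 (0.28) and Elavl1 (0.24). Zfp36l2 with LPS, at -1.18, is the point beyond 2-fold.

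The difference of the LPS responses (libraries labelled Sema6D-/- minus WT) was at least 2-fold for 1 member in each direction, beside 1.83% and 1.25% of 10680 genes. The 4 ratios share their libraries, so this difference restates the values above in another form. Zc3h12a had a difference of 1.16, and 73 of 10290 protein-coding genes had a higher one. It fell short of the size rule after rescaling to the same summed FPKM, at 0.95. Zfp36l2 had -1.64, and 14 of 10290 protein-coding genes had a lower one. The differences of the other 8 members ran from -0.02 for Btg1 to 0.64 for Zfp36. Without replicates none of these differences can be set against variation between libraries.

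Genes with the most similar 4-library pattern were taken from 7804 protein-coding genes, by the distance between log2(FPKM + 1) values centred on each gene's mean. Nearest to Zfp36 were Rnf24 (distance 0.081), Aff1 (0.11) and Spsb1 (0.12), and nearest to Zc3h12c were Larp1 (0.056), Crlf3 (0.094) and Junb (0.10), an immediate early gene. Nearest to Zc3h12a were Rab8b (0.14), Cpeb3 (0.17) and Mapk6 (0.18). Nearest to Zfp36l1 were Abhd15 (0.20), Arhgap22 (0.35) and Tifab (0.42). Nearest to Zfp36l2 was the chemokine receptor gene Cxcr4 (0.39). It measured 38.8 and 5.80 FPKM in WT, then 72.7 and 2.46 in the Sema6D-/- labelled libraries. Rassf3 (0.47) and Vgll4 (0.48) followed. Like Zfp36l2, all 3 had their highest level without LPS and their lowest with LPS under the Sema6D-/- label. The distance grows with the width of the changes, which was greatest for Zfp36l2 among the members. The 4 points of each pattern are the same 4 libraries.

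For the machinery that the members call on, counts past 2-fold with LPS are given beside the shares of all genes. Those were 10.7% higher and 4.85% lower in WT, and 14.0% and 8.81% in the Sema6D-/- labelled libraries. Lists this short cannot set a count of 0 or 1 apart from them. Of 13 measured genes of the CCR4-NOT deadenylase and its adaptors, 0 were at least 2-fold higher and 0 lower in WT, and 0 and 1 in the Sema6D-/- labelled libraries, with medians of -0.17 and -0.16. The one was Tob2, an adaptor related to the Btg genes (20.7 and 11.3 FPKM in WT, 20.1 and 9.27 in the others, log2 ratios -0.82 and -1.04). Cnot7, a catalytic deadenylase, had 0.63 and 0.95. Among 7 other deadenylases and poly(A)-binding genes 1 was higher in each genotype, Noct, which encodes nocturnin, a protein of the deadenylase family by sequence (22.2 and 50.9 FPKM in WT, 11.1 and 37.2 in the others, log2 ratios 1.16 and 1.66).

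Of 16 decapping and 5′ decay genes 4 were higher and 0 lower in each genotype, namely Dcp1a, Dcp2, Xrn1 and Xrn2. Of all genes 10.7% were higher in WT and 14.0% in the Sema6D-/- labelled libraries. Dcp2, the decapping enzyme, measured 7.80 and 42.4 FPKM in WT, then 10.1 and 44.1 in the Sema6D-/- labelled libraries, with log2 ratios of 2.30 and 2.02. Xrn1, the cytoplasmic exonuclease that degrades decapped mRNA, measured 4.07 and 17.3 FPKM in WT, then 6.95 and 26.4 in the others, with log2 ratios of 1.86 and 1.79. Its nuclear relative Xrn2 had 1.14 and 1.34. The median of the list was 0.13 in WT and 0.15 in the Sema6D-/- labelled libraries, so most of its genes lay near the median of all genes. After rescaling to the same summed FPKM 2 of the 16 were higher in each genotype and the medians were -0.37 and -0.58. The 14 genes listed for the RNA exosome and its cofactors held 0 higher and 0 lower in WT and 0 and 1 in the others. The one was Exosc6 (log2 ratios -0.88 and -1.34), and the medians of the list were -0.06 and -0.02. After the same rescaling the numbers lower were 2 and 4 for the CCR4-NOT list and 2 and 5 for the exosome, and Noct was short of 2-fold in both genotypes. On that scale 14.3% of all genes were at least 2-fold lower in WT and 28.8% in the Sema6D-/- labelled libraries, and 6.77% and 7.07% higher.

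Among other proteins that bind AU-rich elements or stem-loops, a few genes had wide ratios and most lay within 2-fold. Arid5a, which encodes a protein known to stabilise Il6 mRNA, measured 1.12 and 25.0 FPKM in WT, then 2.63 and 42.4 in the Sema6D-/- labelled libraries, with log2 ratios of 3.62 and 3.58. N4bp1, which encodes an RNase related to Regnase-1, measured 19.3 and 93.0 FPKM in WT, then 30.8 and 120 in the others (2.21 and 1.92). Zc3h12d, a further Regnase gene, was lower with LPS in WT at 4.60 against 17.9 FPKM (-1.76), and measured 12.5 and 6.55 in the Sema6D-/- labelled libraries. In all 2 of 14 measured genes of this list were higher and 1 lower in WT, beside 10.7% and 4.85% of all genes. In the others 3 of 15 were higher and 0 lower, beside 14.0% and 8.81%. The medians were 0.09 and 0.19, and after rescaling -0.42 and -0.55. On that scale 4 were lower in the Sema6D-/- labelled libraries, beside 28.8% of all genes.

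Kinases and other regulators that act on the members were also compared. Malt1, a protease that cleaves Regnase-1 and Roquin proteins in lymphocytes, measured 6.92 and 47.6 FPKM in WT, then 14.4 and 182 in the Sema6D-/- labelled libraries, with log2 ratios of 2.62 and 3.57. Mapkapk2, the kinase that phosphorylates tristetraprolin, measured 92.4 and 377 FPKM in WT, then 158 and 683 in the others (2.02 and 2.10). Both were higher in each state in the Sema6D-/- labelled libraries, with genotype ratios of 0.96 and 1.91 for Malt1 and 0.77 and 0.85 for Mapkapk2. Of 12 genes in the list 2 were higher in WT, beside 10.7% of all genes, and 3 in the others, beside 14.0%. The one added in the others was Ywhaz (log2 ratio 1.30). In both genotypes 0 were lower, and the medians were 0.42 and 0.40 (-0.10 and -0.35 after rescaling).

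Most textbook targets of these proteins were higher with LPS. In WT 19 of 21 measured were higher and 0 lower (median 2.62), beside 10.7% and 4.85% of all genes. In the Sema6D-/- labelled libraries 21 of 22 were higher and 1, Vegfa, lower (median 3.91), beside 14.0% and 8.81%. This list was chosen with earlier results of these data known, so its counts are no test of mRNA decay. With LPS 8 of 22 were at least 2-fold higher in the library labelled Sema6D-/- than in WT, beside 3.09% of all genes. Lower were 2 of 22, Il10 and Vegfa, beside 3.18%. The median was 0.88 where that of all genes was 0.04. Cxcl2, a neutrophil chemokine whose 3′ UTR held 4 nonamers, measured 105 FPKM in WT with LPS and 625 in the library labelled Sema6D-/- (log2 ratio 2.57). Il1b (2.64) and Ptx3 (2.56) had ratios of like size and held 0 nonamers, and Vegfa, which was lower (-1.10), held 1. After rescaling 16 and 18 targets were at least 2-fold higher with LPS, beside 6.77% and 7.07% of all genes. These levels do not show how fast any of the mRNAs decayed.

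**Figure D5:**
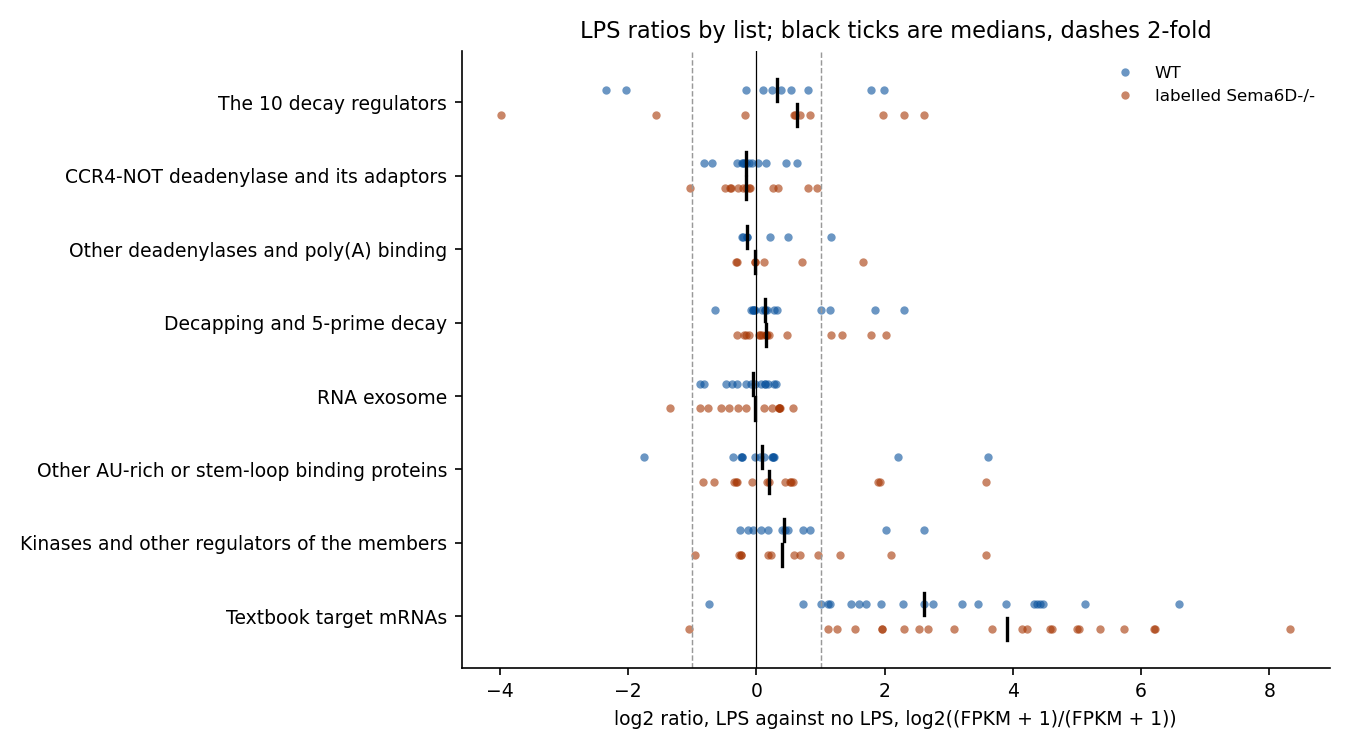
LPS log2 ratios with the added 1 (x axis) for the 10 members and 7 lists of related genes (rows), 1 point per gene, blue for WT and brown for the Sema6D-/- labelled libraries; black ticks are medians and dashed lines mark 2-fold. Medians of the decay machinery lie between -0.17 and 0.15, and those of the targets at 2.62 and 3.91.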

How the data were processed

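The authors deposited FPKM values (fragments per kilobase of transcript, scaled per library), for RefSeq transcripts in each of the 4 libraries. The submitters' processing notes list Cuffnorm 2.2.1, SAMtools 0.1.19, Bowtie2 2.2.3 and TopHat2 2.0.13, with build mm9; order, options and annotation were not given in the sources used here. The kit was stranded, per the labels' protocols, which name different RNA extraction reagents. Of 34487 transcripts 34163 were named from the GRCm38 RefSeq table and 187 from GENCODE vM21, 137 were left out, and transcripts were summed per gene. Genes reaching 1 FPKM in either library of a comparison were kept, and ratios were log2((FPKM + 1)/(FPKM + 1)), which understate changes of low genes. No test across libraries was run.

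FPKM was multiplied by a fitted scale and by transcript length less a fitted fragment length (200 or 220 bases). The products fell on whole fragments (tolerance 0.1) for 73.9 to 75.1% of low values. Evenly spread values would give 20%, but scale and fragment length were chosen on these same values for closeness to whole numbers. Fragment numbers from this step gave exact 95% binomial intervals of ratios, and a normal approximation for differences. The estimator was tested on simulated data. Analyses used Python 3.11.15, pandas 2.3.3 and scipy 1.17.1. Members, lists and the naming rule were chosen with earlier results of these data known. The rule named all members, up to 3 genes per list and comparison by size at 5 FPKM or more, and the 3 nearest patterns. Dcp1a was named outside the rule, to complete a count, as were Tnf and Il12b for their nonamer counts and Vegfa. Alternatives covered the pseudocount, the filter, 2 scalings and the leading transcript.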

Additional observations from a re-analysis of the deposited data

How the results depend on the processing

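Of the 10 counts of members past 2-fold (5 comparisons, 2 directions), all but one kept their value or stayed within 1.5 times of it under each of 7 alternative settings, of which the ratio without an added 1 was chosen after seeing the data. The exception was the count with the larger LPS response in the Sema6D-/- labelled libraries, which was 0 in place of 1 after rescaling to the same summed FPKM, where Zc3h12a had 0.95. Every other member value past 2-fold stayed past it under all 7 settings, Zfp36l2 in the Sema6D-/- labelled libraries running from -4.67 to -3.98. Scaling moved the split of all genes: with LPS in WT 1114 were higher and 503 lower, but 713 and 1502 after rescaling to the same summed FPKM, and in the Sema6D-/- labelled libraries 1453 and 916 became 743 and 3021, or 1245 and 1233 after centring on the median. The same rescaling gave 188 higher and 412 lower in place of 311 and 320 between genotypes with LPS, and 123 and 223 in place of 195 and 134 for the difference of responses. With a pseudocount of 0.1 that last split was 294 and 363, and with LPS in WT it was 1266 and 892. Rc3h1, Rc3h2 and Elavl1 changed sign under rescaling, as given above. No paired analysis was possible because each group held 1 library. Depth did not limit the members, which rested on 252 to 27398 estimated fragments, and the counting intervals leave out variation between cultures.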

Other observations

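Elavl4, a member of the same Hu family as Elavl1 that is best known from neurons, measured 0.0272 and 0.0417 FPKM in WT without and with LPS, and 1.68 and 8.95 FPKM in the Sema6D-/- labelled libraries. The genes Elavl2 and Elavl3 stayed below 1 FPKM in every library. Khsrp, which encodes an AU-rich element binding protein that promotes decay, was lower in the Sema6D-/- labelled libraries in both states, at 17.7 and 10.8 FPKM against 25.7 and 19.9 in WT (log2 ratios -0.51 and -0.82, short of 2-fold). Mapk14, the p38 kinase upstream of Mapkapk2, measured 40.7 and 37.1 FPKM in WT, then 59.4 and 30.0 in the Sema6D-/- labelled libraries, a difference of LPS responses of -0.83.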
